A study of Mus musculus with 192 samples.

Results

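The 10 genes described here encode smooth-muscle-type actin and proteins that bind or move actin filaments: Acta2, Tagln, Tagln2, Cnn1, Cnn2, Tpm1, Tpm2, Tpm4, Myl9 and Cald1. They were chosen by name, as contractile and tropomyosin genes, from 11654 genes with start-site tags at an annotated RefSeq start. Their promoters were taken as the 271 deposited windows of 150 bp, of 553094 in all, that carry 1 of these gene names and lie within 1000 bp of an annotated start. Of these windows 247 held a peak on the strand of the gene, and 1813 peaks of single cells fell on them. The 10 genes have 15 annotated promoters in the deposited table, of which 14 held a peak.

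The cells were mouse embryonic fibroblasts of strain C57BL/6, primary connective-tissue cells grown on uncoated plastic with serum. The assay captured 5′ ends of polyadenylated RNA from each cell separately, and a tag is a read that marks where an RNA began. All 192 cells were treated with interferon-beta at 100 U/ml for 1 h, so no untreated cell enters any value below. The labels put 96 cells in a naive group and 96 in a pretreated group, without saying what the pretreatment was. No culture or animal is named, so each group is 1 sample made of many cells, and no difference was tested. Intervals of levels, ratios and shares of tags treat each tag as independent and cover counting error only. Those of shares of cells treat each cell as an independent draw. None covers variation between cultures or animals. Primary cultures of this kind can hold several cell types. What else differed between the groups is not given in the labels.

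Smooth-muscle actin assembles into stress fibres, the contractile cables that fibroblasts form when they spread on a stiff surface or turn into myofibroblasts. Tropomyosins lie along the actin filament and set which partners reach it, calponins and caldesmon restrain myosin on the filament, transgelins bundle filaments, and the regulatory light chain encoded by Myl9 switches myosin on when it is phosphorylated. Many of these genes are textbook targets of serum response factor (SRF) and its myocardin-related cofactors, which bind a short A/T-rich element called the CArG box, and several are induced by TGF-beta.

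After cells with under 10% of the median total were left out, 92 naive and 85 pretreated cells remained, with 305066 to 3857034 and 502374 to 13174313 tags per cell. Levels are given in CPM, tags per 1000000 tags of the group. Fibroblast collagens Col1a1 (329 CPM in naive cells, 377 in pretreated cells) and Col1a2 (43.4 and 43.97) and vimentin (Vim, 595 and 1088) passed the filter on low values described below, as did Col3a1 (137 and 95.5). Of the other fibroblast markers, Pdgfra (9.76 and 2.53 CPM), Dcn (listed in 3 naive cells and 1 pretreated cell) and Thy1 (1 and 0 cells) did not pass, and Lum was not analysed here. The label thus rests on 4 of 8 fibroblast markers, and the summed marker level ran from 201 to 2756 CPM over naive cells and from 99.7 to 4087 over pretreated cells. Of 7 smooth muscle and pericyte markers only Pdgfrb (21.5 and 24.5) and Cspg4 had a peak. The other markers of that list, Myh11, Des, Rgs5, Mcam and Notch3, were listed at 0 in every cell. Outside it, the smooth-muscle genes Lmod1 and Actg2, named after their values were seen, did not pass the filter but had peaks. Lmod1 had 25.4 CPM in 15 naive cells and 4.19 in 9 pretreated cells. Actg2 had 11.9 CPM in 11 naive cells and 5.02 in 10 pretreated cells. Of 5 epithelial markers 4 were listed at 0 and Krt19 was not analysed here. Of 8 skeletal and cardiac muscle markers 4 (Myod1, Ckm, Actc1 and Myh6) and of 6 macrophage markers 3 (Ptprc, Adgre1 and its older symbol Emr1) were not analysed here either. The measured members of the epithelial, skeletal and cardiac muscle, macrophage and endothelial lists summed, list by list, to 8.32 CPM or less in either group. The part of unequal mixtures of cell types in the differences below was not tested. In a sum over cells, fewer cells that express a gene and less RNA per cell cannot be told apart. The share or number of cells is therefore given beside each level of the 10 genes.

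A gene is called listed in a cell when at least 1 peak was called at its promoter, and a gene without a called peak is listed at 0. The level of a gene is the CPM of its promoter tags. Over the 10 genes it came to 5536 in naive and 6504 in pretreated cells. A cell listed a median of 9 of the 10 genes in either group, and 35 naive and 20 pretreated cells listed all 10. The signal of a cell is its tags at the promoter per 10000000 tags of that cell.

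**Figure D1:**
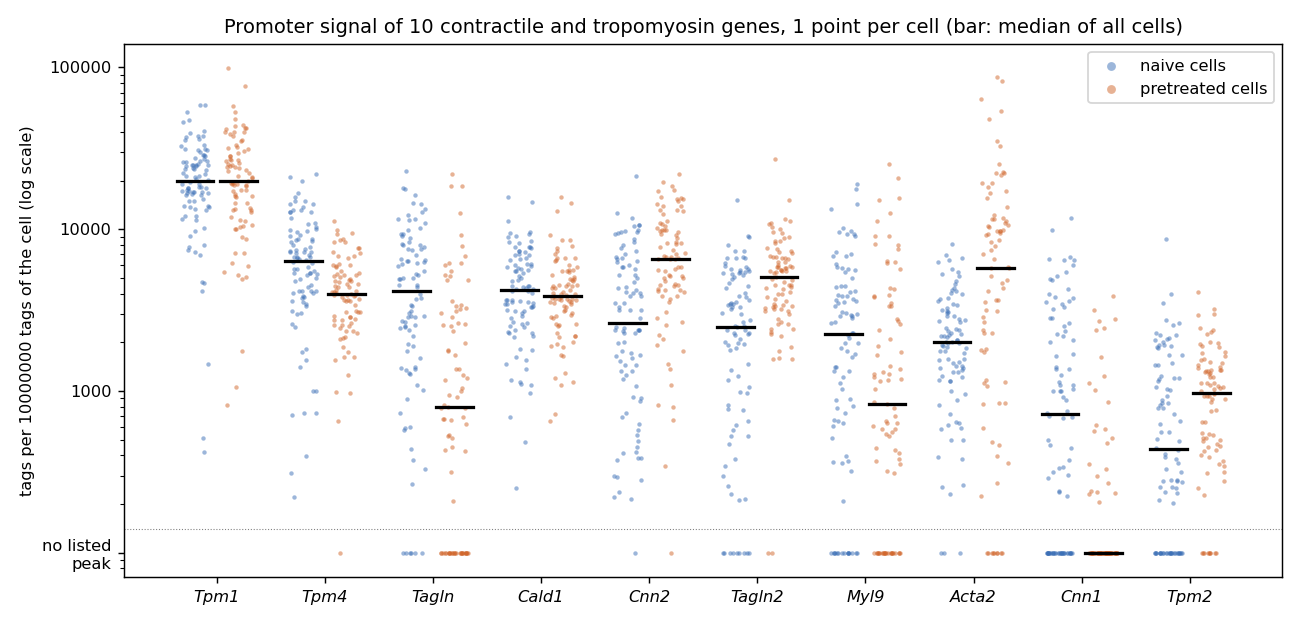
Promoter signal of each of the 10 genes in each cell, as tags per 10000000 tags of the cell on a log axis. Blue points are the 92 naive cells, orange points the 85 pretreated cells, black bars the medians over all cells, and cells without a listed peak stand below the dotted line. Tpm1 is highest in both groups, the pretreated cells of Acta2 spread up to 86782, and 60 pretreated cells have no listed Cnn1 peak.

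Acta2 encodes alpha smooth-muscle actin, the marker of myofibroblasts. Its signal had a lowest value of 0, a median of 1996 and a highest value of 8048 over naive cells, against 0, 5727 and 86782 over pretreated cells. The pretreated cells spread further in both directions: 37 of 85 lay above the highest naive cell, while 9 had no listed peak against 3 of 92 naive cells. The level was 231 CPM (95% interval 229 to 233) in naive and 1104 (1100 to 1108) in pretreated cells. The pretreated level was thus 4.78 times the naive one, a log2 ratio of 2.26 (2.24 to 2.27). It was 1.05 when tags on the gene strand at any distance from the start were counted. The highest pretreated cell held 12.7% of the pretreated tags, and without the highest cell of each group the log2 ratio was 2.12. By level, Acta2 ranked 493rd in naive and 71st in pretreated cells among the 3692 genes that passed the filter described below.

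The stretch around the annotated Acta2 start holds the sequence elements that its textbook regulation rests on. They are printed here because Acta2 had the highest ratio of the 10 genes, and each line is read 5′ to 3′ on the gene strand, chromosome 19 minus, from the RefSeq promoter table on build GRCm38.p6. Capitals in the first pair mark 10-base matches to a CArG box with 1 G or C allowed among its 6 inner bases, at 84 to 75 and at 34 to 25 bases before the annotated start. Capitals in the third mark TATATAA, which begins 8 bases after the annotated start. The deposited windows are on mm9, so these stretches were not placed against them.
Acta2 distal CArG-like element, chr19:34255438-34255467: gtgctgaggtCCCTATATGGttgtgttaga
Acta2 proximal CArG-like element, chr19:34255388-34255417: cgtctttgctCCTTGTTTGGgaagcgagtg
Acta2 A/T-rich element, chr19:34255349-34255375: agcaaggggcTATATAAcccttcagcg

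Transgelin (Tagln, also called SM22) bundles actin filaments and is an early smooth-muscle marker. Over naive cells its signal had a lowest value of 0, a median of 4163 and a highest value of 22765, and over pretreated cells 0, 793 and 21921. The highest cells of the groups had similar values, and the difference lay in the middle and at 0: 6 naive and 27 pretreated cells had no listed peak. The level was 570 CPM (567 to 574) in naive and 234 (232 to 236) in pretreated cells. On the log2 scale the ratio was −1.29 (−1.30 to −1.27). The share of cells with a listed peak was 93.5% (86.3 to 97.6, exact Clopper-Pearson interval) in naive and 68.2% (57.2 to 77.9) in pretreated cells. In the pretreated group 1 cell held 17.4% of the Tagln tags.

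Tagln2, the transgelin of non-muscle cells, went the other way. Its signal had a lowest value of 0, a median of 2495 and a highest value of 15222 over naive cells, against 0, 5073 and 27282 over pretreated cells, and 73 of 85 pretreated cells lay above the naive median. The level was 327 CPM (324 to 329) in naive and 571 (568 to 573) in pretreated cells. The log2 ratio was 0.81 (0.79 to 0.82), under 2-fold. A peak was listed in 83 of 92 naive cells (90.2%) and in 83 of 85 pretreated cells (97.6%). In naive cells Tagln stood above Tagln2 and in pretreated cells Tagln2 stood above Tagln.

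The calponins showed the same split. Calponin 1 (Cnn1), the calponin of differentiated smooth muscle, had a median signal of 717 and a highest value of 11783 over naive cells, with 31 cells at 0. Over pretreated cells the median was 0 and the highest value 3874, with 60 cells at 0. The level was 166 CPM (164 to 167) in naive and 31.4 (30.8 to 32.1) in pretreated cells. The log2 ratio was −2.40 (−2.43 to −2.36), so that the naive level was 5.27 times the pretreated one. It was listed in 66.3% of naive cells (55.7 to 75.8) and in 29.4% of pretreated cells (20.02 to 40.3).

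Calponin 2 (Cnn2), the widely expressed calponin, was listed in 91 of 92 naive and 84 of 85 pretreated cells. Its signal ran from 0 through a median of 2646 to 21195 over naive cells, and from 0 through 6586 to 21874 over pretreated cells. The groups overlapped over nearly their whole range, and 72 of 85 pretreated cells lay above the naive median. The level was 424 CPM (421 to 427) in naive and 755 (752 to 759) in pretreated cells. On the log2 scale the ratio was 0.83 (0.82 to 0.85).

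Tpm1 encodes the most abundant tropomyosin of the set and gave 40.3% of the tags of the 10 genes in naive and 39.01% in pretreated cells. Every cell listed it. Its signal had a lowest value of 417, a median of 19846 and a highest value of 58371 over naive cells, against 818, 19918 and 98965 over pretreated cells, so the medians were nearly equal. The level was 2230 CPM (2224 to 2237) in naive and 2537 (2531 to 2543) in pretreated cells. On the log2 scale the ratio was 0.19 (0.18 to 0.19), and it ranked 15th of those 3692 genes in both groups.

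Tpm4, a tropomyosin of non-muscle filaments, was listed in all 92 naive and in 84 of 85 pretreated cells. The naive cells ran from 221 through a median of 6363 to 21864 and the pretreated cells from 0 through 3980 to 11317. Only 15 of 85 pretreated cells lay above the naive median. The level was 711 CPM (707 to 714) against 457 (454 to 459), a log2 ratio of −0.64 (−0.65 to −0.63).

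Tpm2 encodes beta-tropomyosin and had the lowest naive level of the 10, at 91.3 CPM (90.03 to 92.7), against 115 (114 to 116) in pretreated cells. Its median signal was 435 with a highest value of 8654 over naive cells, and 976 with a highest value of 4119 over pretreated cells. More pretreated cells listed it, 89.4% (80.8 to 95.04) against 70.7% (60.2 to 79.7), while the log2 ratio of the levels was 0.33 (0.30 to 0.36).

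Myl9, the regulatory light chain of smooth-muscle and non-muscle myosin, had a median signal of 2250 and a highest value of 19101 over naive cells, against 825 and 25145 over pretreated cells. At 0 stood 15 naive and 23 pretreated cells. The levels were closer than the medians, 320 CPM (318 to 323) against 269 (267 to 271), a log2 ratio of −0.25 (−0.27 to −0.24).

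Caldesmon (Cald1), which holds myosin off the filament, was listed in every cell. Its signal ran from 251 through a median of 4199 to 15809 over naive cells and from 656 through 3865 to 15909 over pretreated cells. The levels were 466 CPM (463 to 469) and 431 (428 to 433), a log2 ratio of −0.11 (−0.13 to −0.10), the smallest difference of the 10 on this scale.

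The order of the naive levels was Tpm1, Tpm4, Tagln, Cald1, Cnn2, Tagln2, Myl9, Acta2, Cnn1 and Tpm2. Only Tpm1 stood apart from its neighbour beyond the spread over cells: its interquartile range of signal (13973 to 27344) lay above that of Tpm4 (3863 to 9311), while all other neighbours had overlapping interquartile ranges. In pretreated cells the order was Tpm1, Acta2, Cnn2, Tagln2, Tpm4, Cald1, Myl9, Tagln, Tpm2 and Cnn1. There Tpm1 (12770 to 30625) again lay above its neighbour Acta2 (1135 to 11604), and Tpm2 (452 to 1402) lay above Cnn1 (0 to 238).

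All 10 genes passed the filter set on all genes, which asked for 20 CPM in either group and, in either group, a listed peak in 20% of its cells, as did 3692 genes in all. Acta2 was the only one of the 10 at least 2-fold higher in pretreated cells, where 28.7% of all 3692 genes were. Tagln and Cnn1 were at least 2-fold lower, 2 of 10, where 10.2% of all genes were. The other 7 lay within 2-fold. The share of cells with a listed peak was at least 20 percentage points higher for none of the 10 against 47.2% of all genes, and at least 20 points lower for Tagln and Cnn1 against 3.11% of all genes. Only Cnn1 (66.3% of naive cells) and Tpm2 (70.7%) had room for such a rise. The other genes were listed in 83.7% or more of naive cells, so their share could not rise by 20 points. Over the 10 genes the median log2 ratio was 0.04, with 5 above and 5 below 0, where the median of all genes was 0.44.

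Pretreated cells thus had a higher level of most genes on this scale, and a scaling that sets the median of all genes to 0 moves every log2 ratio down by 0.44. On that scale Acta2 stood at 1.82, Cnn2 at 0.39 and Tagln2 at 0.36, while Tpm2 (−0.11) and Tpm1 (−0.25) lay on the other side of 0. The remaining log2 ratios were −0.55 for Cald1, −0.69 for Myl9, −1.08 for Tpm4, −1.73 for Tagln and −2.84 for Cnn1, so that Tpm4 also came to lie past 2-fold.

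**Figure D2:**
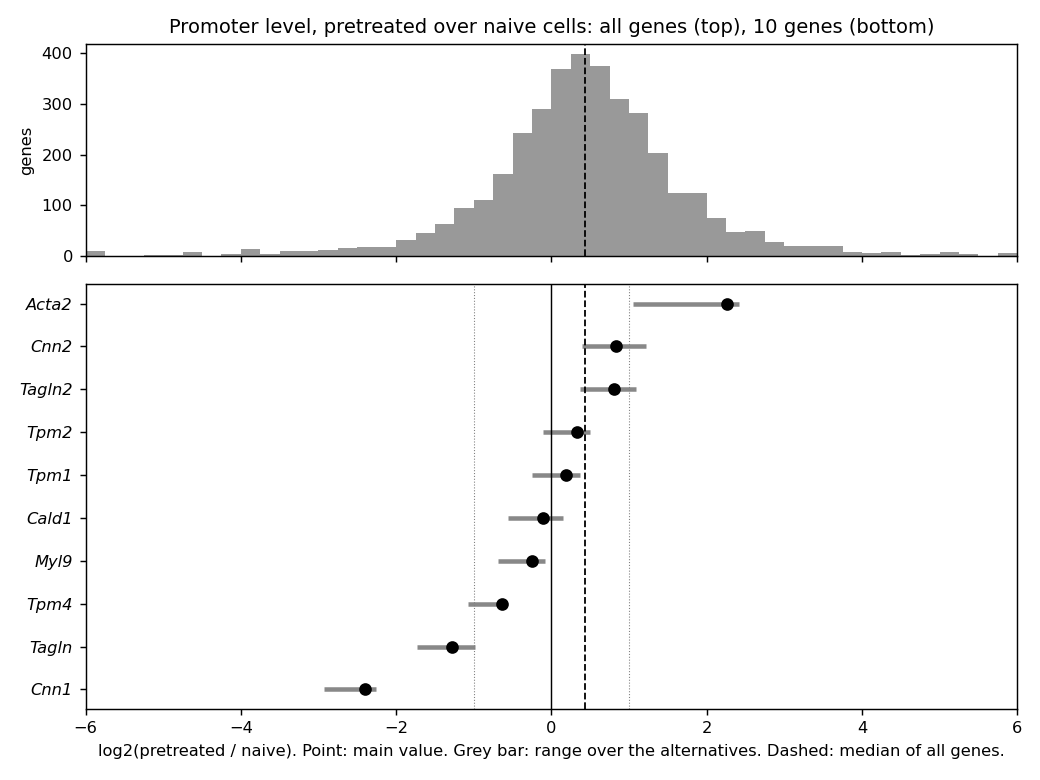
Log2 ratio of the promoter level, pretreated over naive cells, of the 3692 genes that passed the filter (top, number of genes per bin of 0.25, with values beyond the axis placed in the end bins) and of the 10 genes (bottom). Points are the values given in the text, grey bars the range over the processing alternatives, dotted lines 2-fold and the dashed line the median of all genes at 0.44. Acta2 at 2.26 and Cnn1 at −2.40 are the ends of the set.

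Total tags per cell differed between the groups, with medians of 2305628 in naive and 2650490 in pretreated cells. After thinning each cell to 1122990 tags, which left out 16 naive and 2 pretreated cells, Cnn1 was listed in 65.8% of naive and 28.9% of pretreated cells, Tagln in 94.7% and 69.9%, and Acta2 in 97.4% and 87.95%. The thinned shares of the 10 genes moved the difference between the groups by at most 2.78 points. Peaks had been called before thinning, at a minimum relative to the total of each cell. Thinning therefore cannot show how the calling itself depends on depth.

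The position of a start is the window whose first base lay within 2 bp of the first base of a cell's peak. All tags of a peak, up to 150 bp wide, are counted at that window. Distances run from the centre of the window, not from its first base, to the annotated start. Acta2, Tagln, Cnn1 and Tpm1 had the sharpest promoters of the 10 genes. Their focus ratio, a deposited fraction for how much of a peak sits at its main position, averaged over tags, was 0.983, 0.937, 0.975 and 0.951 in naive cells and 0.993, 0.878, 0.9398 and 0.960 in pretreated cells. Tpm4 (0.633 and 0.536), Cnn2 (0.6999 and 0.599) and Cald1 (0.714 and 0.619) had the broadest ones in naive cells. Of the 10 genes 7 had a lower focus ratio in pretreated cells, and so had 87.6% of the 3379 genes with at least 10 peaks in both groups. The median focus ratio over all genes compared was 0.907 in naive and 0.821 in pretreated cells.

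At Acta2 the main start differed by 2 bp between the groups. In 74 of 89 naive cells with a listed peak it was the window chr19:34329752-34329901 (mm9), 37 bp downstream of the annotated start, which held 84.9% of the naive tags. In 73 of 76 pretreated cells it was chr19:34329750-34329899, 39 bp downstream, with 99.3% of the tags. Only 1 naive cell had a peak at the second window and 3 pretreated cells had a peak at the first, so the groups hardly overlapped. In 7 of those 73 pretreated cells the peak began midway between the windows and was counted at the second. A further 12.1% of the naive tags lay 35 bp downstream. Across all genes 202 had 1 start in at least 50% of the listed cells of each group, and the most frequent start differed between the groups in 9.41% of them, by 2 bp in 4 genes including Acta2. Tagln, Cnn1 and Tpm1, the other sharp promoters of the set, kept their start.

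The leading window of Tagln was chr9:45743905-45744054 in both groups, 162 bp downstream of the annotated start and annotated as 5′ UTR, with 95.1% of naive and 96.3% of pretreated tags. That of Cnn1 was chr9:21903650-21903799, 27 bp downstream, with 92.3% and 83.7%. In Tpm1 both groups led with chr9:66896941-66897090, 5 bp downstream of the upstream start, but its share was 56.8% in naive and 79.99% in pretreated cells, and the window 4 bp nearer to the annotated start held 40.5% and 16.2%.

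The broad promoters also shifted their weights within short distances. Tpm4 led in both groups 34 bp upstream of its annotated start (chr8:74659079-74659228), with 23.7% of naive and 47.6% of pretreated tags. Myl9 led 40 bp upstream (chr2:156601086-156601235) with 57.97% and 43.9%, and a window 13 bp upstream held 9.77% and 29.3%. Cnn2 led 39 bp downstream (chr10:79451310-79451459) with 47.3% and 28.4%. The leading window differed between the groups for Tagln2 by 3 bp, Cald1 by 6 bp and Tpm2 by 35 bp. With Acta2 these make 4 of the 10 genes, against 62.9% of the 3379 genes.

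**Figure D3:**
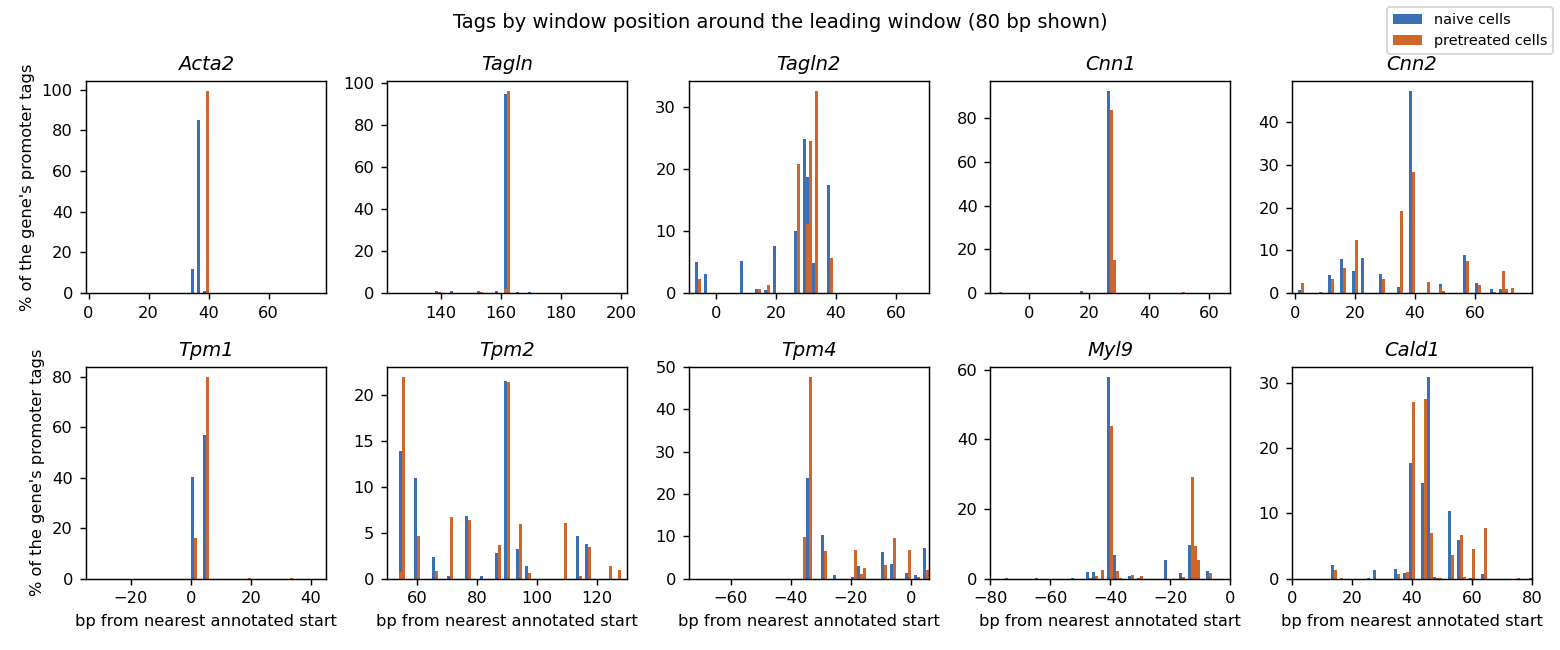
Percent of the promoter tags of each gene at each window, by distance in bp from the nearest annotated start, over 80 bp around the leading window. Naive cells are blue, pretreated cells orange, and bars of the same window stand side by side. The Acta2 bars stand at 37 bp in naive and 39 bp in pretreated cells, while Tagln and Cnn1 keep their position. Distances of Tpm1, Tpm2 and Cald1 pool their annotated promoters.

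Tpm1 and Cald1 can start from widely spaced promoters. Which protein forms followed from each start was not measured. Of the 4 annotated Tpm1 promoters, the 1 at transcript NM_001164255 gave 441086 of 453461 tags in naive cells (97.3%) and 699859 of 727593 in pretreated cells (96.2%). An internal promoter with its leading window 5457 bp downstream, at NM_001164254, gave 2.72% (2.68 to 2.77) and 3.73% (3.69 to 3.77). NM_001164256 gave 26 and 592 tags in 1 and 3 cells, and NM_001164251 was listed at 0 on the gene strand. Internal starts were listed in 41 naive and 62 pretreated cells, always beside the upstream start, and reached at most 33.7% and 39.5% of the Tpm1 tags of a cell.

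In Cald1 the internal promoter at NM_145575 had its leading window 110944 bp downstream of that of the upstream promoter and took a larger part, 10.2% of naive (10.0 to 10.4) and 13.6% of pretreated tags (13.4 to 13.8). It was listed in 47 of 92 naive and 59 of 85 pretreated cells. It exceeded the upstream start in 3 naive cells and 2 pretreated cells, and 1 naive cell listed the internal start alone. The annotated starts of Tpm2 lie close together, with leading windows 94 bp apart, and NM_009416 gave 97.2% and 94.6% of its tags. Peaks of a cell lie at least 300 bp apart, so a cell could not list both leading windows, and 0 cells listed both starts. These Tpm2 shares therefore depend on which start was called in each cell.

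Promoter sequences of 9 of the 10 genes were found in the RefSeq table. That of Tagln was not analysed here, so no statement on motifs covers it. In the 250 bases before the annotated start, a strict CArG box (CC, 6 bases of A or T, GG, on both strands) occurred in Cnn2 and Myl9, and in 1.47% of 32851 promoters of that length. With 1 G or C allowed among the inner bases, Acta2 joined them, against 8.59% of all promoters. The looser form was searched after the strict result was seen. The matches are printed below because they are the binding element named for this gene group, on GRCm38.p6, on the gene strand, with the CArG bases in capitals.
Cnn2, chr10:79988534-79988563 (plus), 56 bases before the start: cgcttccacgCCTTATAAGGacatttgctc
Myl9 distal, chr2:156775293-156775322 (plus), 161 bases before the start: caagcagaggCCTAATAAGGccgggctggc
Myl9 proximal, chr2:156775355-156775384 (plus), 99 bases before the start: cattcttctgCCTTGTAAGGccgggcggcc

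The 3 genes with such a match had log2 ratios of 2.26 (Acta2), 0.83 (Cnn2) and −0.25 (Myl9), so their ratios differed in size and sign. CATTCC, the MCAT core bound by TEAD factors, was found on either strand in Acta2, Tagln2, Tpm1 and Cald1 and in 12.6% of all promoters. TATAAA was found before the internal Cald1 start alone and in 12.4% of all promoters, and the interferon-response core GAAA, any 2 bases, GAAA in none of the 9 and in 2.98%. TATATAA, searched after Acta2 was read, occurs on the gene strand in 2.20% of all 300-base promoters. A match is a string of letters and not a measured binding site.

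The signals of the 10 genes were weakly to moderately related over cells. Over the 45 pairs of genes, Spearman's correlation over cells had a median of 0.22 in naive cells (−0.06 to 0.51) and 0.27 in pretreated cells (−0.22 to 0.66), as a description with no test, since cells of a group share 1 source. Acta2 and Tagln had the highest correlation in naive cells, 0.51, and one of 0.60 in pretreated cells. Cnn2 and Myl9 had the highest in pretreated cells, 0.66, and 0.38 in naive cells. Tagln and Cnn1 had 0.49 and 0.33. Thus Acta2 and Tagln varied together from cell to cell within each group while their levels differed between the groups in opposite directions. The correlations of Tagln2 with the other genes ran from −0.02 to 0.26 in naive cells and from −0.22 to 0.19 in pretreated cells, and those of Tpm2 in naive cells ran over a like range, from −0.01 to 0.27.

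**Figure D4:**
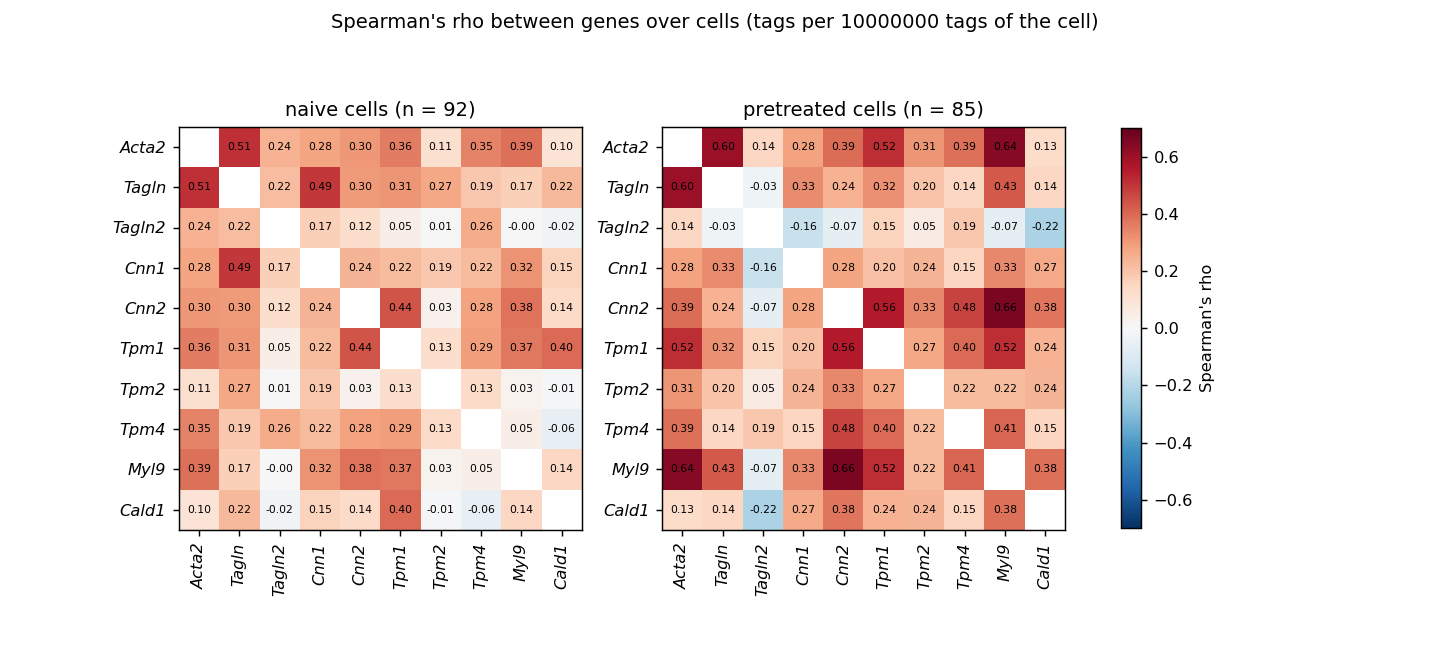
Spearman's correlation between the signals of each pair of the 10 genes over the 92 naive cells (left) and the 85 pretreated cells (right), with the value printed in each square and red for positive and blue for negative values. Acta2 with Tagln is red in both panels (0.51 and 0.60), and the row of Tagln2 is pale or blue in pretreated cells.

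The summed signal of the 10 genes had a median of 52063 over naive and 51248 over pretreated cells, and its correlation with the total tags of a cell was 0.06 and 0.16. Among 1294 other genes that 50% or more of the cells of each group listed, the 5 most like this sum were Actb (correlation 0.52 in naive and 0.73 in pretreated cells), Dstn (0.44 and 0.59), Myl6 (0.41 and 0.61), Tmsb4x (0.39 and 0.47) and Rsu1 (0.41 and 0.44). The median of the mean correlation over all 1294 genes was 0.04. Actb encodes cytoplasmic beta-actin, Dstn the filament-severing protein destrin, Myl6 the essential light chain of myosin and Tmsb4x the actin-monomer binder thymosin beta-4. The Actb level was lower in pretreated cells, 8072 against 3007 CPM with a log2 ratio of −1.42, and that of Dstn was 556 and 562.

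Other genes of the actin and myosin machinery were described from lists named for it. Of 24 further filament, myosin and crosslinking genes 19 passed the filter, 8 at least 2-fold higher in pretreated cells and 2 at least 2-fold lower, with a median log2 ratio of 0.66. Over all 3692 genes 28.7% were higher and 10.2% lower, with a median of 0.44. Myl12a, a regulatory light chain like Myl9, had the highest level, 1891 and 2038 CPM. Myl12b had 25.6 CPM, listed in 24 naive cells, and 247, listed in 82 pretreated cells, a log2 ratio of 3.27, the highest of the list. Myl12a and Myl12b are near-identical copies, and whether reads were split between them was not tested. The lowest ratio, and the next highest mean level, was that of Myl6, at 700 and 299 CPM (−1.23), and the other gene past 2-fold lower was Vcl, the adhesion protein vinculin (126 and 62.03 CPM, −1.03), named after its value was seen.

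Of 19 genes of SRF and TGF-beta signalling and their shared targets 5 passed, 2 at least 2-fold higher and 0 lower, with a median of 0.72, against the same 28.7%, 10.2% and 0.44 over all genes. Thbs1, the secreted matrix protein thrombospondin 1, had 45.5 and 340 CPM (2.90). Ccn1, a secreted matricellular protein, had 107 and 171 CPM (0.67). Srf itself was listed in 0 naive cells and 1 pretreated cell, and is named here after its value was seen.

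Not all tags on the gene strand lay at promoters. Beyond 1000 bp of a start the 10 genes held 26.1% of their gene-strand tags in naive and 15.3% in pretreated cells, against 29.3% and 19.98% over all genes. Acta2 had 61.2% of its naive tags there and 10.8% of its pretreated tags, mostly in exons, in 82 of 92 and 59 of 85 cells. Tpm1 held 31.95% and 21.4% of its tags there, most of them in a window at its transcript end, chr9:66870926-66871075, with 173154 tags in 73 naive cells and 153950 in 62 pretreated cells. In Cnn1, Cnn2 and Tpm4 at most 6.05% lay beyond 1000 bp in either group.

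**Figure D5:**
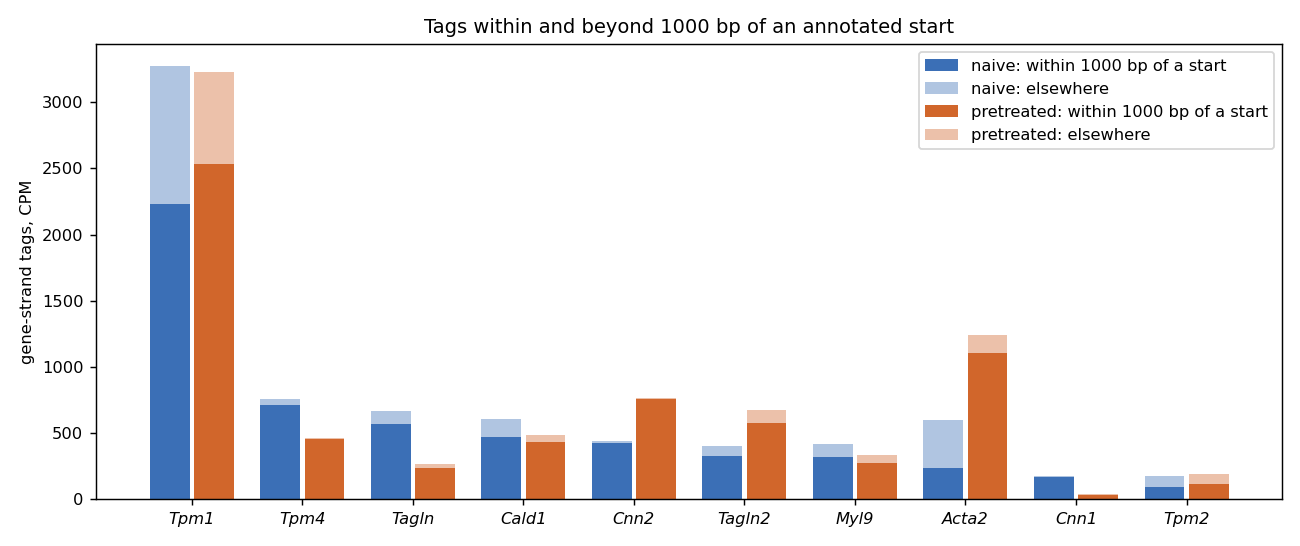
Gene-strand tags in CPM (tags per 1000000 tags of the group) for each of the 10 genes, in naive (blue) and pretreated cells (orange). Solid parts lie within 1000 bp of an annotated start, and pale parts at other windows that carry the gene name. The pale part of Acta2 is larger than its solid part in naive cells, 61.2% of its tags, and 10.8% in pretreated cells.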

How the data were processed

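Single-cell start-site libraries of 192 cells were used, 1 deposited peak file each. Per the submitters' processing notes Bowtie2, HOMER and build mm9 were used. Per the file headers, peaks of 150 bp at least 300 bp apart were called in each cell with a minimum of 200 tags per 10000000, and the signal of a peak is its tags per 10000000 tags in that cell. The focus ratio is a fraction deposited with each peak. Distances to the nearest start, deposited by the authors as a score in base pairs, come from the RefSeq table of windows. The handling of duplicates is not given in the sources used here, and a tag is a read, not a molecule.

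Signal was turned back into tags with the header totals: all 1082504 peaks gave whole tags within rounding, and they sum to the 426263116 tags in peaks of the headers. Peaks within 2 bp of a window start were given to the nearest such window, and on a tie to that of lower coordinate. The strand of a gene, from GENCODE vM21, was found for 98.9% of 18460 names. Levels are summed promoter tags over summed totals, ratios carry exact conditional and shares exact Clopper-Pearson intervals at 95%, and the level and ratio steps were tested on simulated data. No group has replicates, so no test was run. The 2 deposited matrices with 384 columns without sample names were not used here. No 2 cells had the same total.

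The genes, lists and alternatives were chosen with earlier results of these data known. Named besides the 10 genes are, of each list, the 2 genes of highest mean level and those of highest and lowest ratio among genes that passed, and the 5 genes whose signal was most like the summed signal. A list and a gene that this rule covers are not reported here. The analysis used pandas, numpy and scipy in Python.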

Additional observations from a re-analysis of the deposited data

Results flagged for a closer look

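Tags outside the promoter windows, which enter no level above, were present in both groups. On the gene strand and beyond 1000 bp of a start, windows with the names of the 10 genes held 398441 tags in naive and 336456 in pretreated cells. The Tpm1 window at the transcript end held 173154 and 153950 of them, and exons of Acta2 held 71882 tags in 81 naive and 34396 in 55 pretreated cells. In the promoter windows on the opposite strand the 10 genes had 2277 tags in naive and 1202 in pretreated cells, 0.202% and 0.0644% of the gene-strand promoter tags. Each of these sums is above the 3 tags that a count of 0 allows. Whether such tags are starts, cut RNA or misplaced priming was not tested.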

How the results depend on the processing

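The log2 ratios, their counts and median, and the Tpm1 promoter share were recomputed under 13 alternatives, and the share of cells and the focus ratio under 1 each. Start positions, correlations, Cald1 promoter use and the other gene lists had none. Acta2 stayed at least 2-fold higher (log2 ratio 1.05 to 2.41) and Cnn1 at least 2-fold lower (−2.93 to −2.26) under all of them. Tagln ran from −1.73 to −0.98 over 12: within 100 bp of the start it could not be given, since its window lies beyond, and in even-numbered cells it was −0.98. Tpm1, Tpm2 and Cald1 changed sign under 3, 2 and 1 alternatives. The number of genes at least 2-fold higher was 1, but 3 with exact window match and 2 in even-numbered cells. The number lower was 2, but 1 in even-numbered cells, 1 within 100 bp and 3 with median-of-ratios scaling, which adds Tpm4.

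The median log2 ratio of 0.04 became 0.0049 with equal weight per cell, −0.13 over promoter tags, −0.40 with median-of-ratios scaling, 0.19 within 100 bp, −0.17 at any distance, −0.15 with exact window match, −0.061 in odd-numbered and 0.18 in even-numbered cells, and −0.013 in cells of overlapping depth. The Tpm1 share at its upstream promoter, pretreated minus naive, was −1.08 points. It became −3.02 with equal weight per cell, −1.58 within 100 bp, 8.97 at any distance, −0.65 with exact window match, −0.86 on both strands, −2.28 in odd-numbered and −0.32 in even-numbered cells, −1.36 without the highest cell and −1.54 at overlapping depth. At any distance the sum includes the transcript-end window. The other causes were not tested.

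The focus ratio differed in the same direction by the unweighted median for 7 of 10 genes. No paired analysis was possible because cell numbers only name cells and no test was run. Depth limits genes near the peak minimum: a gene without a called peak in a cell is listed at 0 there.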
